A study of Arabidopsis thaliana with 6 samples.

Results

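*IAA8* (AT2G22670), *IAA9* (AT5G65670) and *IAA18* (AT1G51950) are the 3 genes of the Aux/IAA family among the 629 candidate targets of ATH1 that the authors listed from chromatin immunoprecipitation sequencing (ChIP-seq). They were taken from that list with every peak overlapping their listed windows, 11 peaks in ATH1-GFP libraries and 0 in wild-type libraries. The tested plants were *ath1-3* mutants carrying the genomic construct *pATH1:ATH1-GFP*, in which the *ATH1* promoter drives ATH1 fused to green fluorescent protein, from a single transgenic line with 1 copy of the transgene. The control plants were wild type without GFP, which the labels give as Landsberg *erecta* and the series description and the methods as Columbia. Each group had 3 biological replicates, and all 6 libraries were precipitated with beads carrying an antibody against GFP. The material was seedling shoots without leaves and roots, grown for 2 wk with 16 h of light according to the labels and for longer in short days according to the methods. These descriptions differ, and the peak lists do not settle which of them holds.

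Aux/IAA proteins are short-lived nuclear repressors of the auxin response. They bind to AUXIN RESPONSE FACTOR (ARF) proteins on DNA and recruit corepressors of the TOPLESS family. Auxin joins them to F-box receptors of the TIR1/AFB family, after which they are degraded and the ARF proteins are released. Auxin also sets where leaf primordia and organ boundaries form at the shoot apex, where *ATH1*, which encodes a BELL-type homeodomain transcription factor, is expressed. *IAA8* has been linked to floral organ development, stabilizing mutations of *IAA18* disturb apical patterning of the embryo, and in tomato, a homolog of *IAA9* controls leaf shape and fruit set. In the annotation that the authors attached to their list, the best protein match of IAA8 is IAA9 and that of IAA9 is IAA8, whereas that of IAA18 is AT3G16500 (*IAA26*), which has no row in the list.

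All 3 genes had a single site where the peaks of the ATH1-GFP libraries coincided, and none of the windows held a wild-type peak. *IAA8* had by far the highest enrichment, 4.24 ± 0.938 (SD, n = 3 libraries), followed by *IAA18* with 2.47 ± 0.581 (SD, n = 3) and *IAA9* with 1.93 ± 0.193 (SD, n = 3). These values are fold enrichments, the ratio of sequenced tags piled up at the summit of a peak to the background of the same library, as given by the peak caller MACS. A peak was counted below a false-discovery rate of 0.001, a shared region is a stretch where peaks from all 3 ATH1-GFP libraries overlap, and a shared region is called free where no peak of the wild type below the same false-discovery rate touches it. The genes were listed because their peaks were found with ATH1-GFP and not in the wild type, so the contrast between the groups describes how they were chosen and was not tested.

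The site at *IAA8* lay on chromosome 2 from 9639420 to 9639799 (TAIR10), 380 nt within a window that spans 9635113 to 9640245. It was 446 nt from the upper edge of that window and 4307 nt from the lower edge. The site at *IAA9* lay on chromosome 5 from 26252825 to 26253217, 393 nt within the window from 26250658 to 26257968, with 2167 nt to the lower edge and 4751 nt to the upper. The site at *IAA18* lay on chromosome 1 from 19302343 to 19302742, 400 nt within the window from 19302315 to 19309010. It began 28 nt inside the lower edge, and the peaks of replicates 2 and 3 started outside the window. According to the header of the list, the windows add 3000 nt before and 1500 nt after the coding sequence. Not every listed window reached that far, as that of AT1G77932 spanned only 328 nt. Whether the windows of *IAA8*, *IAA9* and *IAA18* have the full flanks was not analysed. The distances to their edges are therefore not distances to a coding sequence. Strand, exons and transcript ends on this build were not analysed here, so the sites are placed only relative to the windows.

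**Figure D1:**
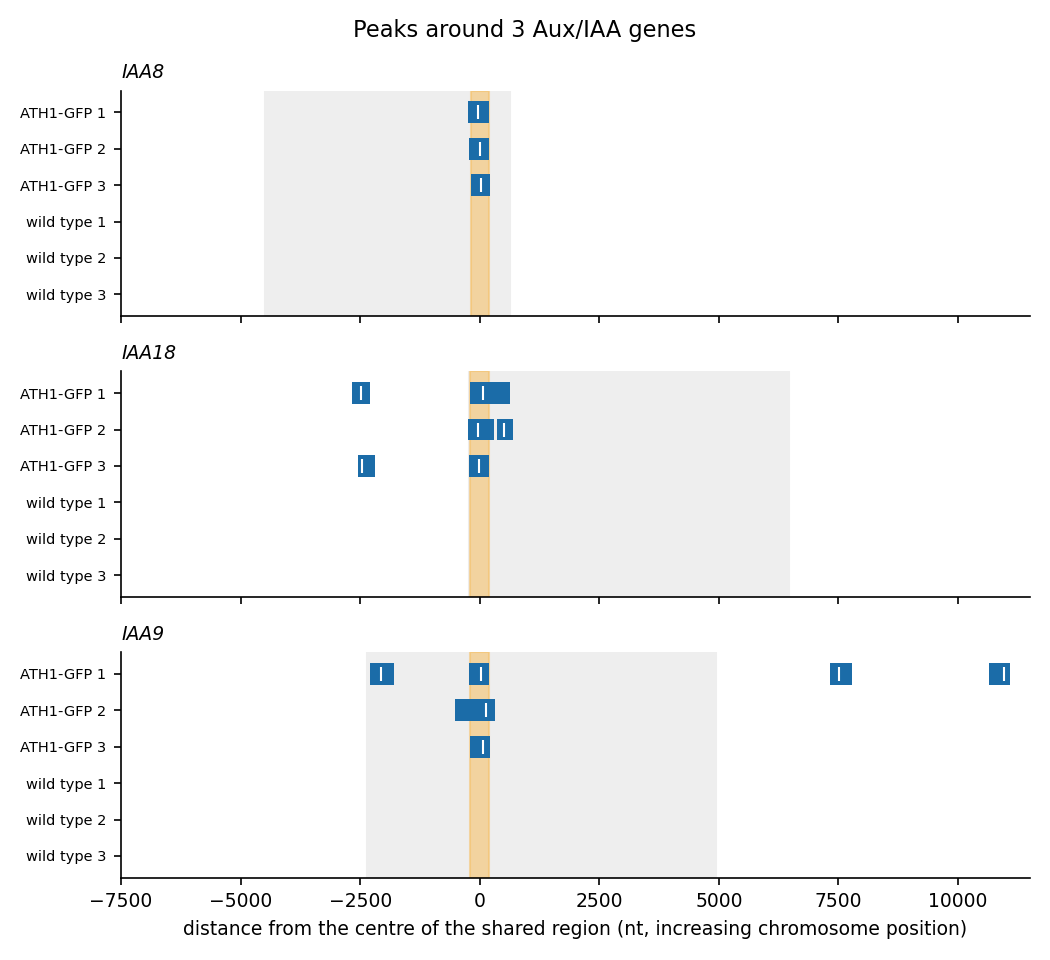
Peaks of the 6 libraries around *IAA8*, *IAA18* and *IAA9*, as distance in nt from the center of the region shared by the ATH1-GFP libraries. Bars are peaks with the summit as a white line, gray areas are the listed windows and orange bands the shared regions of 380, 400 and 393 nt. The wild-type rows are empty over the stretch drawn.

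The summits from separate libraries lay close together. At *IAA8* they were at 9639574, 9639613 and 9639628 in ATH1-GFP replicates 1, 2 and 3, a range of 54 nt. At *IAA9* they were at 26253049, 26253142 and 26253091, a range of 93 nt, and at *IAA18* at 19302615, 19302498 and 19302533, a range of 117 nt. All 9 summits lay within their shared region. Over the 309 free regions of the genome, the median range was 84 nt (from 3 to 2198 nt), so *IAA8* lay below and the other two above the middle, with 113 free regions as tight as *IAA8* or tighter.

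None of the sites lay in the window of another listed gene, which held for 20.3% of the 629 listed genes when the strongest region also had to be free. The nearest protein-coding genes in RefSeq order (TAIR10.1) were AT2G22660 and *WAVH1* (AT2G22680) for *IAA8*, AT5G65660 and *WAVH2* (AT5G65683) for *IAA9*, and *LYK3* (AT1G51940) and *IQD27* (AT1G51960) for *IAA18*. *IAA8* and *IAA9*, which match each other best, are thus each followed by a member of the *WAVH* family, which encodes RING ubiquitin ligases of root gravitropism. None of these 6 neighbors is in the authors' list.

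The fold enrichment at *IAA8* was 4.94, 4.60 and 3.17 in ATH1-GFP replicates 1, 2 and 3, with −log10 q of 60.7, 51.2 and 33.0. Replicate 3 stood below the other two, yet its value was above every value at *IAA9* and *IAA18*. Among the peaks of each library, the site ranked 31 of 1593, 39 of 1226 and 44 of 990 from the top. Among the 309 free regions, it ranked 14 by its mean, and 11, 14 and 16 in the single libraries, so its place was nearly the same whichever library was read.

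The fold enrichment at *IAA18* was 2.70, 2.91 and 1.81 in replicates 1, 2 and 3, with −log10 q of 14.4, 17.5 and 5.05. Its place differed more between libraries, at 330 of 1593, 192 of 1226 and 636 of 990 peaks, and at 131, 82 and 227 of the free regions. By its mean it ranked 111 of 309, above the median of the free regions, 2.29.

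The fold enrichment at *IAA9* was 1.96, 2.11 and 1.73 in replicates 1, 2 and 3, with −log10 q of 5.52, 7.10 and 4.27. The site was thus called in each library, but weakly, at 1190 of 1593, 750 of 1226 and 814 of 990 peaks. By its mean it ranked 291 of 309 free regions, whose lowest mean was 1.78. In replicates 1, 2 and 3 it ranked 298, 234 and 281 of these regions.

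**Figure D2:**
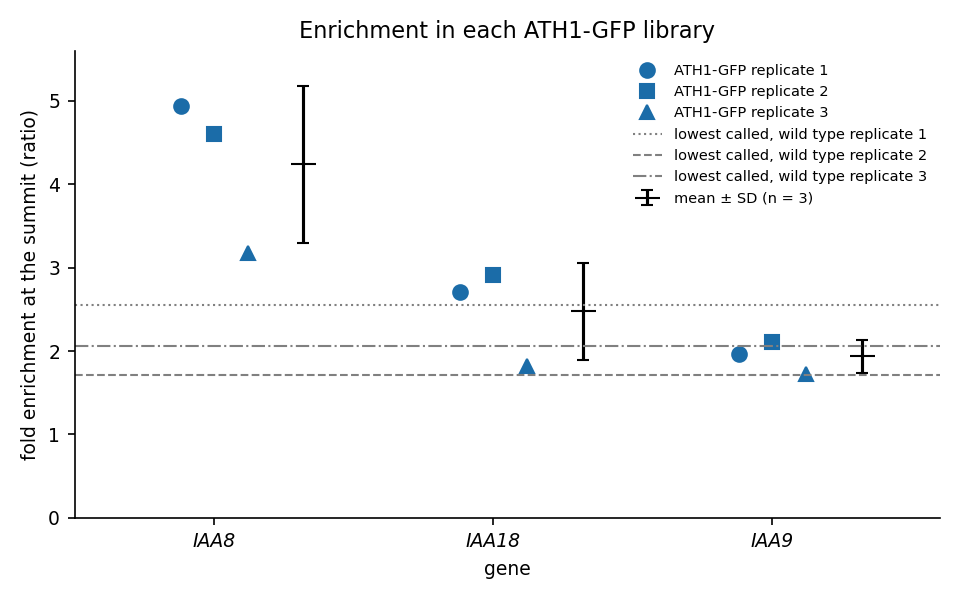
Fold enrichment (ratio, linear axis from 0) at *IAA8*, *IAA18* and *IAA9* in each ATH1-GFP library, with mean ± SD (n = 3). Horizontal lines give the lowest fold enrichment called in wild-type replicates 1, 2 and 3 at the genome-wide background, 2.56, 1.71 and 2.06; *IAA8* lies above all of them in every library.

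Each pair of genes was compared within the libraries. The genes were chosen by family and by the presence of a peak, and its height was no criterion beyond the call. The call itself, a false-discovery rate below 0.001 in all 3 ATH1-GFP libraries, sets a floor on the height. Over a background 5 to 20% above the genome-wide value, as at *IAA9*, the lowest fold enrichment called was 1.75, 1.75 and 1.61 in ATH1-GFP replicates 1, 2 and 3. The values at *IAA9* lay near this floor. The fold enrichment of *IAA8* exceeded that of *IAA9* by 2.97, 2.49 and 1.44 in replicates 1, 2 and 3, a mean of 2.30 ± 0.782 (SD, n = 3; *P* = 0.25, exact permutation by two-sided sign flips). It exceeded that of *IAA18* by 2.24, 1.69 and 1.36, a mean of 1.76 ± 0.443 (SD, n = 3; exact *P* = 0.25). *IAA18* exceeded *IAA9* by 0.738, 0.797 and 0.0859, a mean of 0.540 ± 0.395 (SD, n = 3; exact *P* = 0.25), so the sign was shared but replicate 3 hardly separated the genes. A *P* of 0.25 is the smallest that this exact test can give with 3 libraries, and adjustment over the 3 pairs left it at 0.25. As a ratio, *IAA8* over *IAA18* was 1.83, 1.58 and 1.75, and *IAA8* over *IAA9* was 2.51, 2.18 and 1.84.

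The tags behind these ratios followed another course between the libraries. At the summit of *IAA8*, 176, 160 and 167 tags were piled up in replicates 1, 2 and 3, nearly equal numbers, although replicate 3 had the most tags after removal of duplicates (15584829, against 10451892 in replicate 1 and 10194418 in replicate 2). Scaled to 1000000 such tags, the pileup was 16.8, 15.7 and 10.7. The background over which MACS set the pileup can be recovered from each peak, as the pileup plus 1 divided by the fold enrichment, minus 1. In each of the 6 libraries, the lowest background recovered in this way was the one expected over the whole genome from the tags and the genome size in the file header, 34.8, 34.0 and 51.9 tags in ATH1-GFP replicates 1, 2 and 3. At *IAA8*, the background was this genome-wide value in every ATH1-GFP library. The lower ratio in replicate 3 therefore went with a similar pileup over a larger background.

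At *IAA18*, the summits had 96, 103 and 97 tags, over backgrounds of 34.9, 34.8 and 53.0 tags, between 1.00 and 1.02 times the genome-wide value. At *IAA9*, the summits had 80, 84 and 99 tags, over backgrounds of 40.2, 39.3 and 56.8 tags, 1.15, 1.16 and 1.09 times the genome-wide value. *IAA9* was thus the only member set against a background clearly above that of the whole genome in all ATH1-GFP libraries. With the genome-wide background in its place, an alternative chosen after seeing the data, *IAA9* had 2.19 ± 0.277 (SD, n = 3) and *IAA18* 2.51 ± 0.586 (SD, n = 3). In replicate 3 the order of these genes then turned, with 1.85 at *IAA18* and 1.89 at *IAA9*, as in the tags themselves. The place of *IAA8* above both did not depend on the background.

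**Figure D3:**
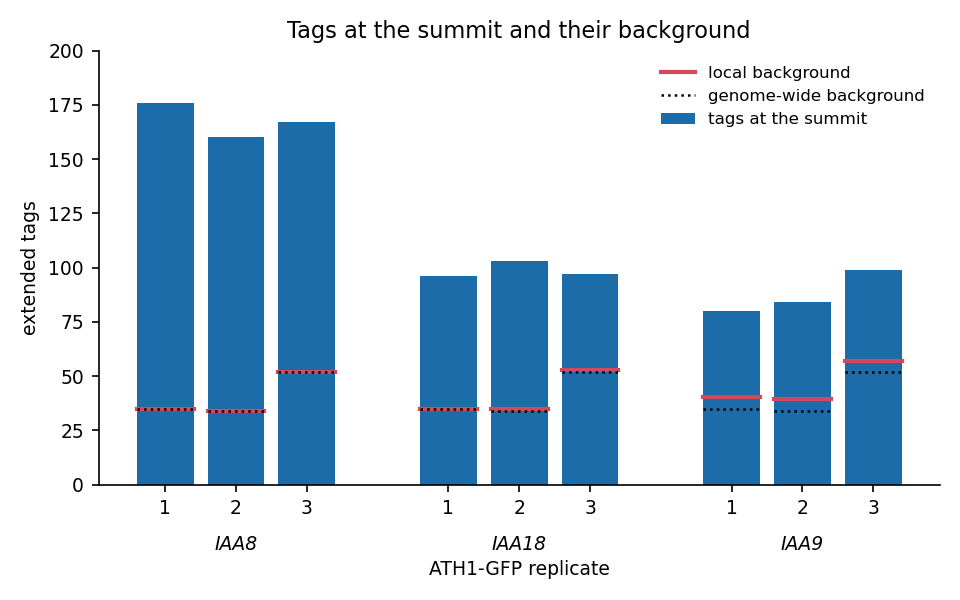
Extended tags at the summit (bars, linear axis from 0) at *IAA8*, *IAA18* and *IAA9* in ATH1-GFP replicates 1, 2 and 3, with the local background that MACS used (red lines) and the genome-wide background (dotted lines). Tags at *IAA8* lie between 160 and 176, and only at *IAA9* does the local background rise clearly above the dotted line in every library.

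All 3 genes had their lowest fold enrichment in replicate 3, as did 91.4% of the listed genes, so in this they were like the rest of the list. At *IAA8* and *IAA18* the drop was deeper than at most free regions, taken over sites of every strength. Replicate 3 had 0.665 of the mean of replicates 1 and 2 at *IAA8*, 0.647 at *IAA18* and 0.848 at *IAA9*, against a median of 0.788 over the free regions (from 0.545 to 1.13). A ratio as low as that of *IAA8* was found in 8.09% of the free regions, and as low as that of *IAA18* in 6.15%. Many free regions are weak, and a weak site with a deep drop would not have been called in replicate 3. There, the lowest fold enrichment called at the genome-wide background was 1.66. Sites of like strength were not compared as a set. Of the other auxin signaling genes with a free region, *ETTIN* had a ratio of 0.638, *TPL* 0.850 and *TPR1* 0.829.

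The windows of *IAA9* and *IAA18* also held peaks that the libraries did not share, while that of *IAA8* held none. At *IAA9*, replicate 1 had a further peak from 26250726 to 26251230 with a fold enrichment of 2.32 and 96 tags, higher than its peak at the shared site (1.96 and 80 tags), but no peak of replicate 2 or 3 lay there. At *IAA18*, replicate 2 had a further peak from 19302908 to 19303240 with a fold enrichment of 2.09. In replicate 1, a single peak of 829 nt, from 19302343 to 19303171, extended over both peaks of replicate 2, and in replicate 3 the only peak ended at 19302742. A single shared region in the window is the usual case, found in 92.8% of the listed genes.

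Beyond the windows, up to 10 kb on either side, the ATH1-GFP libraries had no other peak near *IAA8*. Near *IAA18*, replicates 1 and 3 had peaks with summits at 19300054 and 19300079, 25 nt apart and about 2 kb below the window, with fold enrichments of 2.29 and 1.89. In replicate 3 this outer peak was stronger than the one inside the window (1.81). Replicate 2 had none there, so it did not count as shared. Near *IAA9*, replicate 1 alone had peaks from 26260345 to 26260793 (fold enrichment 2.42) and from 26263663 to 26264101 (1.80).

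No wild-type peak of any deposited false-discovery rate lay in the windows, which was the case for 65.7% of the listed genes, and 69.3% of the listed genes had a free region. The nearest wild-type peaks were 49369, 71458 and 71442 nt from the site at *IAA8* in wild-type replicates 1, 2 and 3. From the site at *IAA18* they were 228501, 338928 and 544879 nt away, and from that at *IAA9* 529803, 157227 and 157321 nt. These distances were not compared with those of other sites.

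How much the lack of a wild-type peak says depends on what each wild-type library could call. Among wild-type peaks at the genome-wide background (within 1%), the lowest fold enrichment called was 2.56, 1.71 and 2.06 in replicates 1, 2 and 3, with 3450182, 13518524 and 6689302 tags after removal of duplicates. All values at *IAA8*, of which the lowest was 3.17, lay above these limits. At *IAA18*, the values of replicates 1 and 2 lay above all limits, whereas that of replicate 3 (1.81) lay above the limit of wild-type replicate 2 alone. Among wild-type peaks over a background 5 to 20% above the genome-wide value, as at *IAA9*, the lowest called was 2.47, 1.69 and 1.97. All values at *IAA9* lay above the limit of wild-type replicate 2, only that of ATH1-GFP replicate 2 (2.11) above the limit of wild-type replicate 3, and none above that of wild-type replicate 1. A signal of the size found at *IAA9* was thus below all 26 peaks called over such a background in wild-type replicate 1. The wild-type background at *IAA9* itself was not measured, so whether a like signal was detectable there at that depth was not tested.

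Of the 29 genes of the Aux/IAA family, 3 (10.3%) had a row in the authors' list, against 2.17% of the 27562 protein-coding genes in the RefSeq table. *IAA8*, *IAA9* and *IAA18* were taken from the list, so their number supports nothing by itself. Among the other families of auxin signaling, 1 of 22 *ARF* genes was listed, *ETTIN* (*ARF3*, AT2G33860), which encodes an ARF of the repressing kind. The families are taken whole, and whether ETTIN itself binds Aux/IAA proteins was not tested. None of the 6 genes for the TIR1/AFB receptors was listed, and 3 of the 5 genes for TOPLESS corepressors were, *TPL* (AT1G15750), *TPR1* (AT1G80490) and *TPR3* (AT5G27030). With 2.17% of all genes listed, 0 of 6 is near the background share and says nothing particular of the receptors.

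*ETTIN* had a free region with a fold enrichment of 3.43, 3.14 and 2.10 in replicates 1, 2 and 3 (mean 2.89 ± 0.703, SD, n = 3), between *IAA8* and *IAA18*. The free region of *TPL* (chromosome 1, 5421077 to 5421714) had 2.56, 2.29 and 2.06 (mean 2.30 ± 0.249, SD, n = 3). That of *TPR1* (chromosome 1, 30267202 to 30267418) had 2.26, 2.20 and 1.85 (mean 2.10 ± 0.222, SD, n = 3). The means of *TPL* and *TPR1* thus fell between those of *IAA18* and *IAA9*. The shared region of *TPR3* (chromosome 5, 9515561 to 9515952) had 3.40, 2.94 and 2.38 (mean 2.91 ± 0.513, SD, n = 3), but it overlapped a peak of wild-type replicate 3, unlike the sites of the Aux/IAA genes. In the order *IAA8*, *ETTIN*, *IAA18*, *TPL*, *TPR1* and *IAA9*, the first step was larger than the SD of either gene, and each later step was smaller than both SDs.

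**Figure D4:**
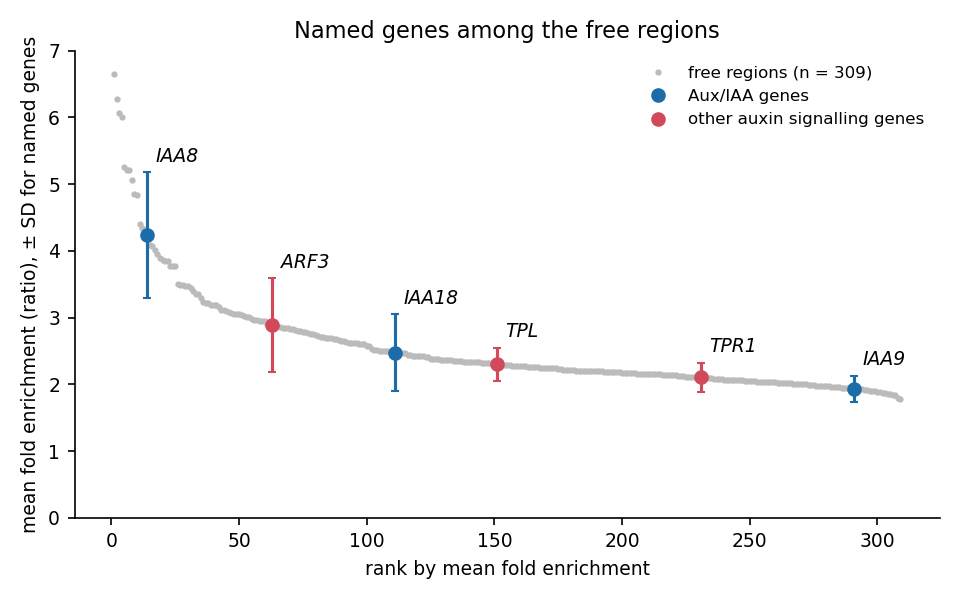
Fold enrichment averaged over ATH1-GFP replicates 1, 2 and 3 (ratio, linear axis from 0) of the 309 free regions by rank, with *IAA8*, *IAA18* and *IAA9* in blue and *ETTIN* (labelled ARF3), *TPL* and *TPR1* in red, each with its SD (n = 3). *IAA8* stands at rank 14 in the steep part of the curve, *IAA18* at 111 and *IAA9* at 291 in its flat part.

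The fold enrichments in the 3 ATH1-GFP libraries were compared on the log2 scale with those of 127 listed genes that had a free region in no other listed window. The genes nearest to *IAA8* were *mMDH2* (AT3G15020), for a mitochondrial malate dehydrogenase, with 4.63, 4.57 and 3.08 in replicates 1, 2 and 3 (distance 0.103), and *ATBET12* (AT4G14455), for a SNARE protein, with 4.77, 4.23 and 3.02 (distance 0.149). Nearest to *IAA18* were AT3G17980, for a protein with a C2 domain, with 2.71, 2.86 and 1.85 (distance 0.0377), and *AAP1* (AT1G58360), for an amino acid permease, with 2.76, 2.66 and 1.89 (distance 0.145). Nearest to *IAA9* were AT1G31130, of unknown function, with 1.98, 2.14 and 1.72 (distance 0.0269), and AT1G24996 with 2.01, 1.99 and 1.68 (distance 0.101). With 3 libraries, such likeness says only that the values are close. *IAA9* and *IAA8* were not among each other's nearest genes, which follows from their difference in height given above and adds nothing to it.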

How the data were processed

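Reads of 50 nt from 6 ChIP-seq libraries were mapped by the authors with Bowtie2 to TAIR10, and peaks were called in each library alone with MACS 2.0.10.20130915 (no control, tags extended to 300 nt, 1 tag per position, genome size 90000000, q cutoff 0.05, local background over up to 10000 nt). The deposited fold enrichment is the authors' ratio of pileup to local background, the −log10 p and −log10 q are the authors' MACS values, the pileup is a deposited signal not scaled for depth, and the deposited score (−log10 q times 10) was not used. The authors' table gives the count of ATH1-GFP libraries with a peak, and their mean fold enrichment and −log10 q, which equaled the means computed here at all 3 genes. Depth was between 3450182 and 15584829 tags per library after removal of duplicates.

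Shared and free regions were formed with Python 3.11.15, numpy 2.4.6, scipy 1.17.1 and pandas 2.3.3, and figures were drawn with matplotlib 3.10.9. The overlaps were tested on simulated data. Each gene was given the fold enrichments of its strongest free region (for *TPR3*, shared region). Genes named were the members, listed genes of the Aux/IAA, ARF, TIR1/AFB and TPL/TPR families, listed genes sharing a member's region, and the 2 nearest profiles per member. AT2G22660, AT5G65660, *WAVH1*, *WAVH2*, *LYK3* and *IQD27* are neighbors named outside this rule, as is *IAA26*, the best match of IAA18. The members and lists were chosen with earlier results of these data known. RefSeq (TAIR10.1) gave symbols and gene order only (620 of the 629 listed IDs matched), and its coordinates and DNA sequences were not used here. Alternatives were a stricter false-discovery rate, another minimum overlap, other wild-type exclusions, other measures of enrichment and leaving out each library.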

Additional observations from a re-analysis of the deposited data

How the results depend on the processing

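Of 36 fold enrichments recomputed under alternatives, 35 moved by less than the SD of the libraries, but most of them could not have moved further. All 48 recomputed mean differences between genes, some in other units, kept their sign, and all 13 recomputed counts stayed within 1.5 times. The exception was *IAA9*, whose fold enrichment was 2.19 over the genome-wide background, an alternative chosen after seeing the data, because its local background was above the genome-wide one. A false-discovery rate below 0.0001, peaks required to overlap by 50% of the shorter, any treatment of wild-type peaks and selection by pileup gave the same regions. Each window held 1 shared region and no wild-type peak, so these settings could lose that region but not replace it. At an unchanged region, leaving out 1 library always moves the mean by less than the SD. It also could not turn the sign of a difference that was positive in all 3 libraries. At *IAA8*, the background already was the genome-wide one. Without single ATH1-GFP libraries, the fold enrichment ranged from 3.89 to 4.77 at *IAA8*, from 2.26 to 2.81 at *IAA18* and from 1.85 to 2.04 at *IAA9*. The mean difference ranged from 1.97 to 2.73 for *IAA8* minus *IAA9*, from 1.53 to 1.97 for *IAA8* minus *IAA18* and from 0.412 to 0.767 for *IAA18* minus *IAA9*. In tags at the summit, *IAA18* exceeded *IAA9* by 11.0 ± 11.4 tags (SD, n = 3; exact sign-flip *P* = 0.5), with replicate 3 in the other direction. No paired analysis was possible because the contrast of ATH1-GFP with wild type came from no test; the genes were compared within each library. With 3 libraries, the exact sign-flip test cannot reach 0.05, and the depth of wild-type replicate 1 limits what its empty windows show.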
